A study of Homo sapiens with 12 samples.

Results

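The LRRN and SLITRK families encode membrane proteins with leucine-rich repeats (LRRs) on the outside of the cell, and both are best known from the nervous system. The 9 genes described here are LRRN1, LRRN2, LRRN3 and SLITRK1 to SLITRK6. The families were chosen by measured values: LRRN3 and SLITRK5 stood much higher with doxycycline (Dox) in undifferentiated cells. For the 9 genes that contrast is therefore given as values, with no p. The choice used no numeric threshold. They are 9 of 19775 genes with a probe set of their own, and are read by 16 of the 54675 probe sets on the array.

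Total RNA of the human embryonic stem cell line H9 was read on 12 oligonucleotide arrays in 4 groups of 3. All cells carried a Tet-on construct that expresses GCNF, the orphan nuclear receptor encoded by NR6A1, when Dox is added. The day 6 (d6) groups were grown for 6 days in a medium with serum, with 1 µg/ml Dox or with 1 µM retinoic acid (RA). The undifferentiated (d0) groups were kept in a stem cell medium, with 1 µg/ml Dox for 4 days or with no treatment. Cells without the construct and day 6 cells with neither agent were not analysed here. An effect of Dox itself therefore cannot be told apart from that of GCNF, nor can time, medium and agent be told apart between d6 and d0.

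Intensity is the deposited probe set value on a linear scale, on which the median probe set of an array read 64.2 to 78.0. Levels are mean ± SD, and a log2 fold change is the group mean of log2(intensity + 16) less that of the other group, ± SE, with n = 3 arrays per group. Rose and fell are used of genes with a Benjamini-Hochberg adjusted p under 0.05 in limma over all 19775 genes. The labels call the replicates biological without describing separate cultures, so a p-value here reflects array-to-array spread, which may be technical. Fewer cells of a type and less RNA per cell cannot be told apart in such bulk samples.

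NR6A1 was read by 7 probe sets. At d0 all 7 were higher with Dox and 6 rose. At d6 the probe sets split by their source. The 3 that passed among those designed on NR6A1 mRNA sequences were lower in the arrays labelled Dox than in those labelled RA (-2.99, -1.61 and -1.21 on the log2 scale), while 3 designed on expressed sequence tags were higher (0.99, 0.89 and 0.79). The probe set with the largest difference at d0 read 29.2 ± 13.7 in the Dox-labelled and 336 ± 70.9 in the RA-labelled arrays. At d0 it read 615 ± 40.8 with Dox and 26.8 ± 17.6 without. The day 6 groups are therefore called Dox-labelled and RA-labelled throughout, and every direction between them rests on those labels. Whether the day 6 labels are exchanged cannot be told from these values, and an exchange would turn each sign between the day 6 groups.

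SLITRK proteins sit mainly on the receiving side of synapses, where they bind presynaptic receptor tyrosine phosphatases such as PTPRD and PTPRS and help synapses form. They also shape the outgrowth of neurites. LRRN proteins, also called neuronal leucine-rich repeat proteins, are cell surface proteins that act in adhesion and in the control of growth factor signalling, and LRRN1 is also known from human embryonic stem cells.

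The levels of the 9 genes ranged widely. LRRN1, LRRN2, LRRN3, SLITRK4 and SLITRK5 reached the level of the median gene in at least 1 group, LRRN3 only at d0 with Dox, the group that chose it. SLITRK1, SLITRK2, SLITRK3 and SLITRK6 did not. SLITRK1, SLITRK2 and SLITRK3 averaged above 16 only in d0 groups, and SLITRK6 in all groups. The deposited table gives no call of presence for a probe set, so a low value is not a sign of absence.

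**Figure D1:**
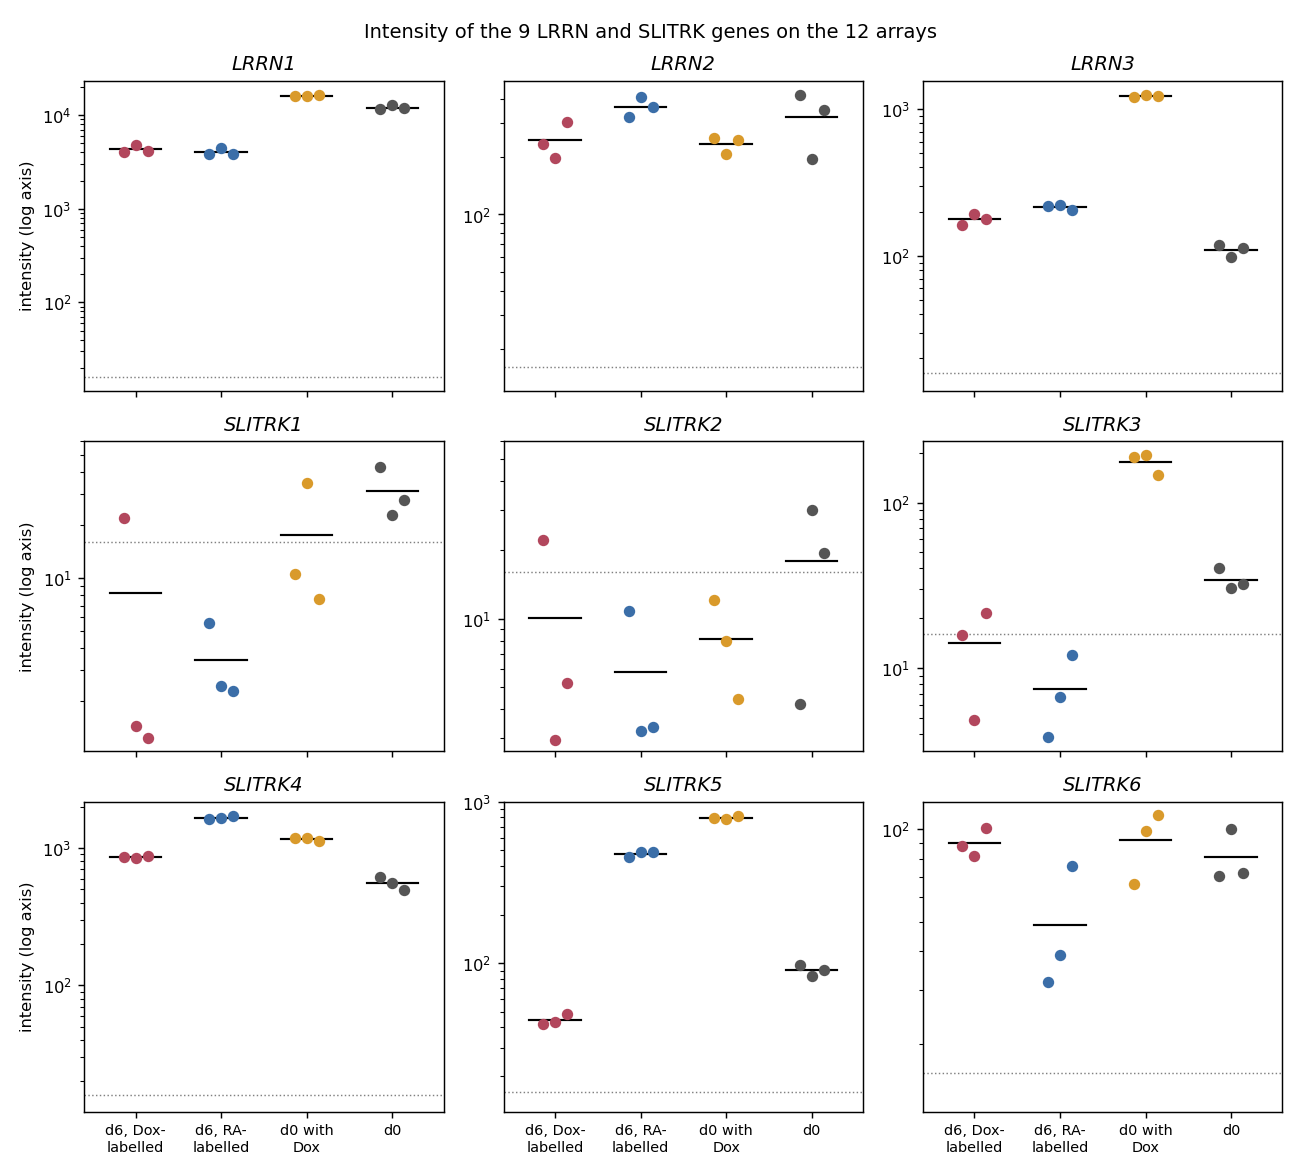
Intensity (log axis) of the probe set that represents each of the 9 genes on each of the 12 arrays, by group, with the group mean as a horizontal line and the pseudocount of 16 as a dotted line. LRRN3 and SLITRK3 were highest in the 3 arrays of d0 with Dox, SLITRK4 in the RA-labelled arrays, and SLITRK5 was lowest in the Dox-labelled day 6 arrays.

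LRRN3 lies on chromosome 7 (GRCh38.p14, chr7:111091127-111125454) and was read by 2 probe sets. The brighter read 161, 193 and 178 in the Dox-labelled and 219, 221 and 206 in the RA-labelled day 6 arrays. It read 1202, 1247 and 1226 at d0 with Dox, and 119, 97.9 and 113 at d0. On this probe set no groups overlapped, and d0 with Dox stood apart from the other groups.

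The fold of LRRN3 for d0 with Dox against d0 was 9.88 (log2 fold change 3.30 ± 0.08), which is part of what chose the families. In the day 6 comparison, which the choice did not use, LRRN3 fell in the Dox-labelled arrays by a small amount (-0.26 ± 0.08, adjusted p = 0.0456 in limma). That call was lost in 15 of 23 alternative settings, with adjusted p between 0.00612 and 0.159. The other probe set of LRRN3 read 121 ± 7.38 in the Dox-labelled and 188 ± 1.99 in the RA-labelled arrays (-0.58 ± 0.11, adjusted p = 0.00646 over all probe sets in limma). Both day 6 groups lay above d0 and far below d0 with Dox, by 0.88 ± 0.08 for RA-labelled against d0 and by -2.69 ± 0.08 for Dox-labelled against d0 with Dox. These comparisons share arrays with the one that chose the gene and are given as values.

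SLITRK5, which in the mouse assists signalling of the neurotrophin receptor TrkB, lies on chromosome 13 (GRCh38.p14, chr13:87671371-87679616) and was also read by 2 probe sets. The brighter read 41.9, 42.9 and 48.5 in the Dox-labelled and 454, 492 and 486 in the RA-labelled day 6 arrays. It read 789, 785 and 823 at d0 with Dox, and 97.9, 83.3 and 91.3 at d0. On this probe set the order was d0 with Dox, RA-labelled d6, d0 and Dox-labelled d6, with no overlap between any of these groups. The last step depended on the probe set: Dox-labelled d6 minus d0 was -0.82 on this one, 0.38 on the other, and -0.22 with probe sets averaged.

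Between the day 6 groups SLITRK5 fell in the Dox-labelled arrays (-3.03 ± 0.07 on the log2 scale, adjusted p = 5.37e-09 in limma). The dimmer probe set went the same way, 17.4 ± 11.8 in the Dox-labelled and 56.1 ± 22.5 in the RA-labelled arrays (-1.14 ± 0.31, adjusted p = 0.0334 over all probe sets in limma). At d0 the fold with Dox was 7.64 (2.93 ± 0.07), the other value behind the choice of the families. The RA-labelled arrays stood above d0 by 2.21 ± 0.07, and the Dox-labelled arrays below d0 with Dox (-3.76 ± 0.07). These comparisons with d0 groups share arrays with the one that chose the gene and are given as values. That the last is the largest difference of the 9 genes in the 4 main comparisons rests in part on that choice.

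With the labels as given, SLITRK5 was higher with Dox at d0 and lower at d6. With the day 6 labels turned, its day 6 difference would be 3.03, the same sign as at d0. The NR6A1 probe set with the largest difference at d0 (3.96 ± 0.30 on the log2 scale) gave -2.99 ± 0.30 for Dox-labelled against RA-labelled arrays, and the 3 probe sets from expressed sequence tags were higher there. Their part in the result was not tested.

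To show the sequence before the start sites of these genes, the 250 bases upstream of the outermost RefSeq start are given for LRRN3 (chr7:111090877-111091126, plus strand) and SLITRK5 (chr13:87671121-87671370, plus strand), from RefSeq on GRCh38.p14. Capitals mark the letters CCAAT, on either strand. For SLITRK3 a 30-base stretch is shown (chr3:165196512-165196541, minus strand), with capitals for AGGTCA, the half-site that nuclear receptors of the GCNF type bind.
LRRN3: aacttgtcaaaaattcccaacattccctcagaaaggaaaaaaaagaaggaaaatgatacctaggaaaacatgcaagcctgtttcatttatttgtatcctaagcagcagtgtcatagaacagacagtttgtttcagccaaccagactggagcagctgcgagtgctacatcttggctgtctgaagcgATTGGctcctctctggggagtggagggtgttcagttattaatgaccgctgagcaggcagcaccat
SLITRK5: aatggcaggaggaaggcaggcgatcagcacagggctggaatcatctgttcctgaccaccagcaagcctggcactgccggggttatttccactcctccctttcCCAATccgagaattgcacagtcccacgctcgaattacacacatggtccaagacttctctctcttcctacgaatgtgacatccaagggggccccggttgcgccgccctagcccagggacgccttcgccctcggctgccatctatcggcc
SLITRK3: cacttttaaagcAGGTCAgtcttaaaagat

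All 9 genes had at least 1 window in the RefSeq table, each running from 250 bases before a start to 50 after it, and there were 15 such windows. The letters AGGTCA, searched on both strands, were in 1 of them, the second window of SLITRK3 at positions -145 to -140 from that start (position 0). Of all 35116 windows 13.8% held them. The direct repeat of AGGTCA without a spacer, the arrangement known for GCNF, and the extended half-site TCAAGGTCA both contain those letters. They were in 0 of the 15 windows and in 0.0171% and 0.353% of all windows. TATAAA was in 0 of 15, against 11.5% of all windows, and CCAAT in 4 of 15, against 34.6%. These are matches of letters and not sites shown to be bound.

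**Figure D2:**
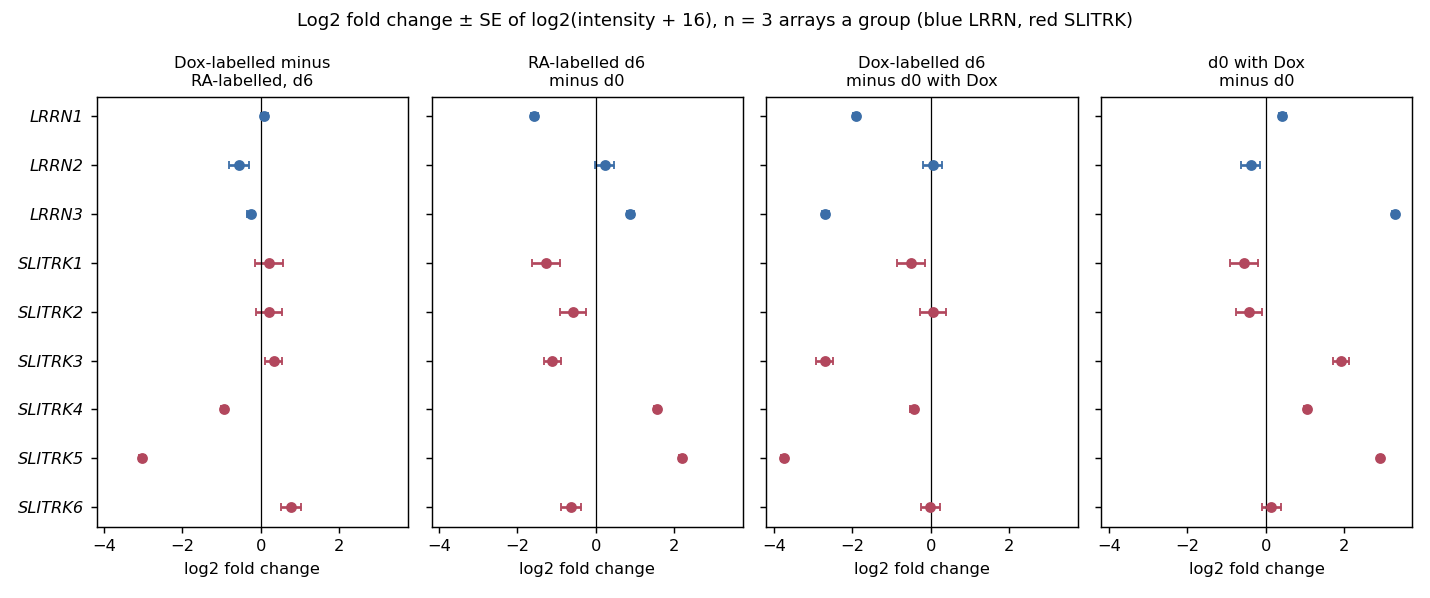
Log2 fold changes of the 9 genes (± SE, n = 3 arrays per group) in 4 comparisons, LRRN genes in blue and SLITRK genes in red. SLITRK5 lay at -3.03 between the day 6 groups and at 2.93 for d0 with Dox against d0, and LRRN3 at -0.26 and 3.30.

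SLITRK3, a postsynaptic protein that induces inhibitory synapses through PTPRD, lies on chromosome 3 (GRCh38.p14, chr3:165186720-165197109). Its probe set read 15.9, 4.84 and 21.5 in the Dox-labelled and 3.81, 6.65 and 11.97 in the RA-labelled day 6 arrays. It read 188, 193 and 146 at d0 with Dox, and 40.2, 30.3 and 32.2 at d0. The 3 arrays of d0 with Dox were thus the highest, and day 6 arrays of both labels were around or under the pseudocount.

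SLITRK3 fell in the Dox-labelled day 6 arrays against d0 with Dox (-2.70 ± 0.21, adjusted p = 2.87e-06 in limma). It also fell in the RA-labelled arrays against d0 (-1.11 ± 0.21, adjusted p = 0.00137 in limma). The day 6 groups did not differ past the threshold (0.33 ± 0.21, adjusted p = 0.315 in limma). At d0 the difference with Dox was 1.93 ± 0.21. The size of each depends on the pseudocount. With a pseudocount of 1 and with the other alternatives, the fall against d0 with Dox lay between -3.75 and -1.62.

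SLITRK4, which regulates neurite outgrowth, lies on the X chromosome (GRCh38.p14, chrX:143622790-143636101). The brighter of its 2 probe sets read 855, 845 and 881 in the Dox-labelled and 1623, 1669 and 1725 in the RA-labelled day 6 arrays. It read 1190.3, 1186 and 1134 at d0 with Dox, and 615, 557 and 492 at d0. No groups overlapped, and the order was RA-labelled d6, d0 with Dox, Dox-labelled d6 and d0.

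Each step in that order down to Dox-labelled d6 against d0 passed the test. SLITRK4 rose in RA-labelled d6 against d0 with Dox (0.51 ± 0.08, adjusted p = 0.00039 in limma), fell in Dox-labelled d6 against d0 with Dox (-0.44 ± 0.08, adjusted p = 0.00124 in limma) and rose in Dox-labelled d6 against d0 (0.62 ± 0.08, adjusted p = 9.29e-05 in limma). It fell in Dox-labelled against RA-labelled d6 (-0.95 ± 0.08, adjusted p = 2.04e-05 in limma), and in RA-labelled arrays against d0 it rose (1.57 ± 0.08, adjusted p = 8.95e-08 in limma). At d0 the difference with Dox was 1.06 ± 0.08. In the 4 main comparisons SLITRK4 had the directions of SLITRK5, at smaller sizes. In the other two the signs were opposite: RA-labelled d6 against d0 with Dox gave 0.51 for SLITRK4 and -0.72 for SLITRK5, and Dox-labelled d6 against d0 gave 0.62 and -0.82. The dimmer probe set read 175 ± 15.99, 387 ± 11.1, 219.8 ± 9.92 and 106 ± 26.2 in Dox-labelled d6, RA-labelled d6, d0 with Dox and d0. Its difference of Dox-labelled d6 against d0 with Dox did not pass (-0.30 ± 0.14, adjusted p = 0.118 over all probe sets in limma).

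LRRN1, a surface protein that in the chick helps set the boundary of midbrain and hindbrain, lies on chromosome 3 (GRCh38.p14, chr3:3799431-3849834). Its probe set read 3993, 4780.0 and 4143 in the Dox-labelled and 3856, 4446 and 3879.5 in the RA-labelled day 6 arrays. It read 16107, 15958 and 16325 at d0 with Dox, and 11469, 12792 and 11854 at d0. Both d0 groups stood above both day 6 groups, which overlapped each other.

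LRRN1 fell in Dox-labelled d6 against d0 with Dox (-1.91 ± 0.09, adjusted p = 7.10e-08 in limma) and in RA-labelled d6 against d0 (-1.57 ± 0.09, adjusted p = 1.78e-07 in limma). Between the day 6 groups it did not pass (0.08 ± 0.09, adjusted p = 0.57 in limma). At d0 the difference with Dox was 0.42 ± 0.09, with no overlap of arrays. Of 13 pluripotent cell markers measured, 0 rose and 13 fell in RA-labelled d6 against d0 (median log2 fold change -2.08, against -0.01 over all genes). Of all genes 25.3% rose and 25.2% fell there. In Dox-labelled d6 against d0 with Dox 0 rose and 12 fell (median -2.48, against -0.03), where 22.2% of all genes rose and 23.9% fell. The part of a change in cell state in the fall of LRRN1 was not tested.

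LRRN2, known as a gene amplified in gliomas, lies on chromosome 1 (GRCh38.p14, chr1:204617170-204685738). The brightest of its 3 probe sets read 234, 197 and 305 in the Dox-labelled and 321, 410.5 and 362 in the RA-labelled day 6 arrays. It read 251, 206 and 244 at d0 with Dox, and 422, 195 and 351.2 at d0. LRRN2 did not pass in any comparison tested. No neighbours in the order of its levels (RA-labelled d6, d0, Dox-labelled d6, d0 with Dox) differed beyond their spread. Its largest difference was RA-labelled d6 against d0 with Dox (0.61 ± 0.25, adjusted p = 0.0715 in limma), where the arrays did not overlap. It passed there in 6 of 23 alternative settings, with adjusted p between 0.00969 and 0.528. Without replicate 2 of d0, its lowest array there, LRRN2 also passed in Dox-labelled against RA-labelled arrays (-0.56, adjusted p = 0.0335 in limma) and in Dox-labelled d6 against d0 (-0.64, adjusted p = 0.0177 in limma), and d0 with Dox minus d0 was -0.69. The other probe sets of LRRN2 averaged between 1.64 and 32.7.

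SLITRK6, whose loss in humans causes deafness with myopia, lies on chromosome 13 (GRCh38.p14, chr13:85792790-85799419). The brightest of its 3 probe sets read 88.1, 81.8 and 101 in the Dox-labelled and 31.8, 38.9 and 75.9 in the RA-labelled day 6 arrays. It read 66.2, 98.7 and 112 at d0 with Dox, and 70.6, 100.3 and 72.2 at d0. Only the day 6 groups were without overlap, the RA-labelled arrays being low.

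SLITRK6 rose in the Dox-labelled against the RA-labelled arrays (0.77 ± 0.25, adjusted p = 0.0457 in limma), a call lost in 12 of 22 alternative settings, with adjusted p between 0.0039 and 0.148. Its other probe sets had the same direction without passing over all probe sets (0.72 ± 0.28 and 1.00 ± 0.35). It fell in RA-labelled d6 against d0 with Dox (-0.77 ± 0.25, adjusted p = 0.0255 in limma), where arrays overlapped and the call was lost in 7 of 22 alternative settings. In the remaining main comparisons with a test it did not pass, with -0.63 ± 0.25 for RA-labelled d6 against d0 (adjusted p = 0.0589 in limma) and 0.00 ± 0.25 for Dox-labelled d6 against d0 with Dox (adjusted p = 0.993 in limma).

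SLITRK1, a neurite outgrowth gene studied in Tourette syndrome, lies on chromosome 13 (GRCh38.p14, chr13:83877205-83882474) and averaged 8.20 ± 11.9 in Dox-labelled d6, 3.43 ± 1.87 in RA-labelled d6, 17.7 ± 15.0 at d0 with Dox and 31.3 ± 10.4 at d0. It fell in RA-labelled d6 against d0 (-1.27 ± 0.35, adjusted p = 0.0122 in limma) and in Dox-labelled d6 against d0 (-1.05 ± 0.35, adjusted p = 0.0317 in limma), all at levels near the pseudocount. The second call was lost in 6 of 22 alternative settings. SLITRK2 lies on the X chromosome (GRCh38.p14, chrX:145817829-145829856) and averaged 10.1 ± 10.4, 5.80 ± 4.37, 8.15 ± 3.84 and 17.9 ± 13.0 in Dox-labelled d6, RA-labelled d6, d0 with Dox and d0. It did not pass in any of the 3 main comparisons with a test. In both genes no neighbours in the order of levels differed beyond their spread.

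Counted together, 1 of the 9 genes rose (SLITRK6) and 3 fell (LRRN3, SLITRK4 and SLITRK5) in Dox-labelled against RA-labelled day 6 arrays, where 13.7% of all genes rose and 12.2% fell. In RA-labelled d6 against d0, 3 rose (LRRN3, SLITRK4 and SLITRK5) and 3 fell (LRRN1, SLITRK1 and SLITRK3), where 25.3% of all genes rose and 25.2% fell. In Dox-labelled d6 against d0 with Dox, 0 rose and 5 fell (LRRN1, LRRN3, SLITRK3, SLITRK4 and SLITRK5), where 22.2% of all genes rose and 23.9% fell. LRRN3 and SLITRK5 count in these comparisons of d6 with d0 groups through arrays that chose them. Those counts are therefore shaped by the choice and are no support when set beside the shares of all genes. At d0, values with Dox were higher for LRRN1 (0.42), LRRN3 (3.30), SLITRK3 (1.93), SLITRK4 (1.06), SLITRK5 (2.93) and SLITRK6 (0.15). They were lower for LRRN2 (-0.38), SLITRK1 (-0.55) and SLITRK2 (-0.42). These are values of the contrast that chose the families, are not counted by a test and support nothing further. The comparisons of d6 with d0 share arrays with that contrast.

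**Figure D3:**
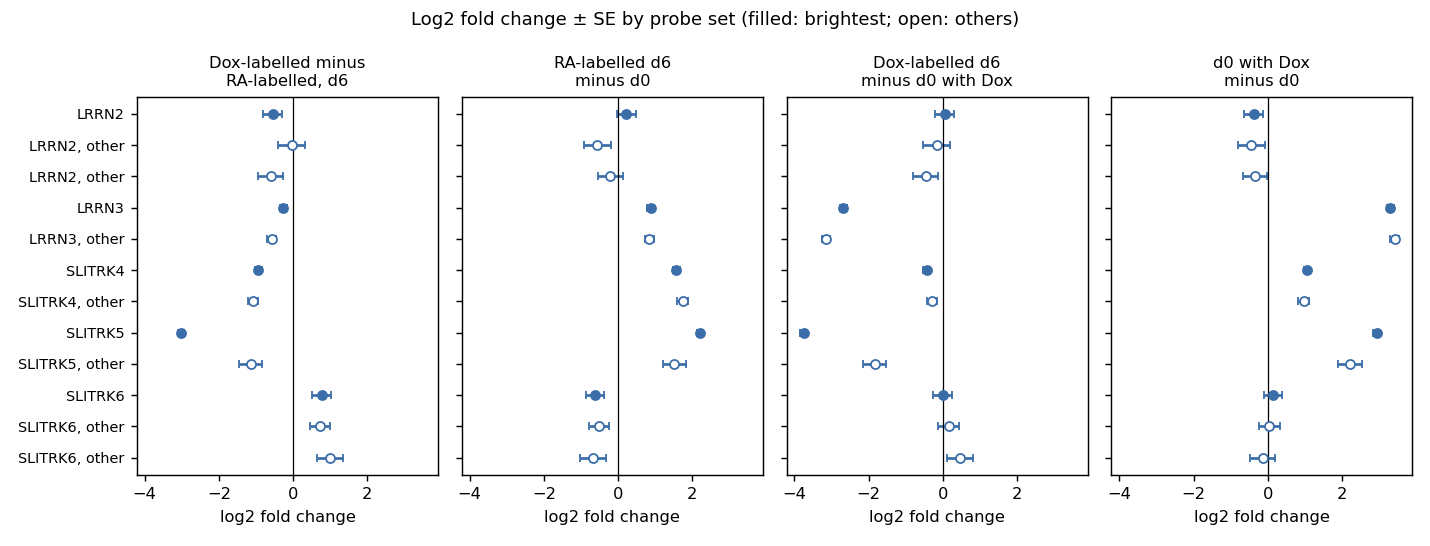
Log2 fold changes (± SE, n = 3 arrays per group) of each probe set of the 5 genes read by more than 1, in 4 comparisons. Filled points are the brightest probe set of a gene and open points the others, and in SLITRK5 both lay below 0 between the day 6 groups (-3.03 and -1.14) and above 0 for d0 with Dox against d0 (2.93 and 2.22).

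Probe sets of 1 gene had the same direction in LRRN3, SLITRK4 and SLITRK5 in all 4 main comparisons. For d0 with Dox against d0 the LRRN3 probe sets gave 3.30 and 3.42, those of SLITRK4 1.06 and 0.96, and those of SLITRK5 2.93 and 2.22. In LRRN2 and SLITRK6 directions differed in comparisons without a call. An example is RA-labelled d6 against d0, where the LRRN2 probe sets gave 0.23, -0.57 and -0.21.

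The genes whose log2 values ran most like those of each of the 5 members at the level of the median gene over the 12 arrays were different ones for each. The 12 arrays form 4 groups, so these Pearson correlations mostly reflect the order of 4 group means and are a description. Nearest to SLITRK5 were EML4 (r = 0.99), JAM3 (r = 0.99) and PHACTR2 (r = 0.98). PHACTR2 averaged 3102 in Dox-labelled d6, 6156 in RA-labelled d6, 6099 at d0 with Dox and 3614 at d0. Nearest to SLITRK4 were SH3BGR (r = 0.98), PLXNC1 (r = 0.98) and SULT1A1 (r = 0.98). SH3BGR averaged 953 in Dox-labelled d6, 2728 in RA-labelled d6, 1347 at d0 with Dox and 559 at d0. Like SLITRK4 it was highest in the RA-labelled and lowest in the d0 arrays. Nearest to LRRN3 were PHF13, PRRT3 and LIX1 (r = 0.94 to 0.95), and LIX1 averaged 25.3, 106, 497 and 19.96 in Dox-labelled d6, RA-labelled d6, d0 with Dox and d0. Nearest to LRRN1 were CACHD1, SLC38A4 and ACVR2B (each r = 0.99), and nearest to LRRN2 were YIPF2, DENND2B and CLPTM1L (r = 0.84 to 0.88). Among the 9 genes themselves the closest were LRRN1 with SLITRK3 (r = 0.87), LRRN3 with SLITRK3 (r = 0.80) and LRRN3 with SLITRK5 (r = 0.77).

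In a list of receptor phosphatases, Trk receptors, scaffolds and other genes around the SLITRK pathway, 17 were measured. IL1RAP and IL1RAPL1 are among the other genes. Between the day 6 groups 7 rose and 2 fell in the Dox-labelled arrays (median 0.27, against 0.00 over all genes), where 13.7% of all genes rose and 12.2% fell. PTPRD, a presynaptic receptor phosphatase bound by SLITRKs, averaged 4473 ± 979 in the Dox-labelled and 1610 ± 117 in the RA-labelled arrays (1.44 ± 0.16, adjusted p = 0.000128 in limma). The scaffold LIN7A rose (1.03) and TRIO, an exchange factor that binds these phosphatases, fell (-0.33). For d0 with Dox against d0, 4 rose and 1 fell (median 0.29, against 0.03), where 7.75% of all genes rose and 5.16% fell. PTPRS, a relative of PTPRD, averaged 3547 ± 140.3 with Dox and 2315 ± 74.9 at d0 (0.61 ± 0.09, adjusted p = 0.00186 in limma), the scaffold CASK rose (0.39) and LIN7C fell (-0.30). In RA-labelled d6 against d0, 6 rose and 2 fell, where 25.3% of all genes rose and 25.2% fell. TRIO (1.84) and IL1RAP (1.81) led those rises. In Dox-labelled d6 against d0 with Dox 4 rose and 1 fell, where 22.2% of all genes rose and 23.9% fell.

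**Figure D4:**
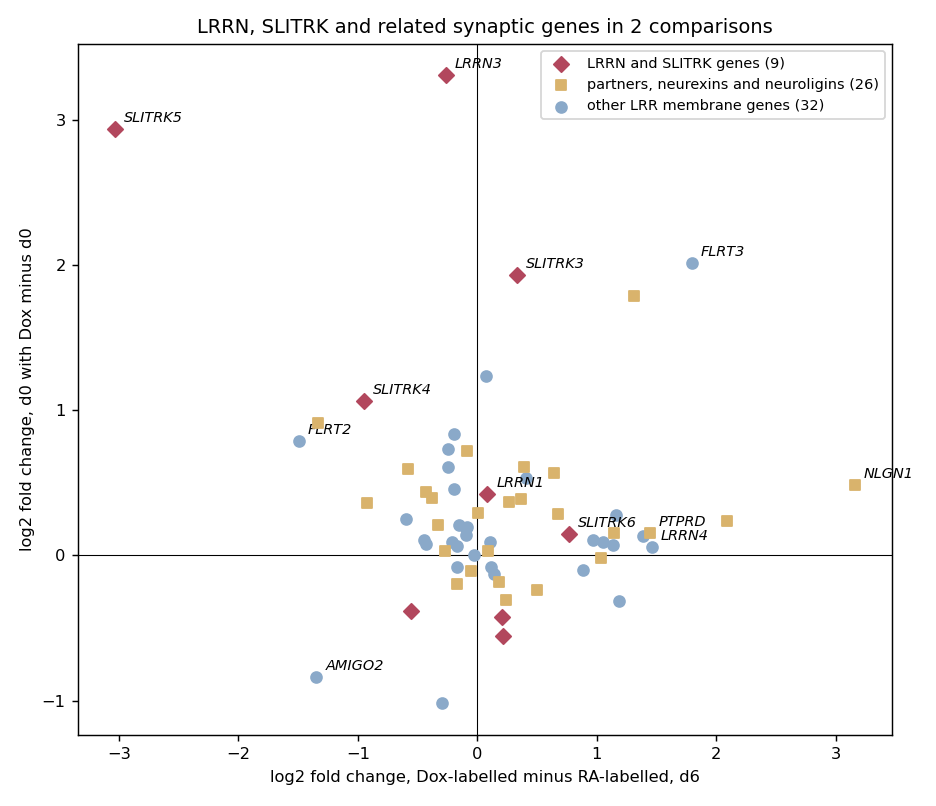
Log2 fold changes of the 9 LRRN and SLITRK genes (diamonds), 32 other LRR membrane genes (circles) and 26 partners, neurexins and neuroligins (squares), for Dox-labelled minus RA-labelled day 6 arrays (horizontal) and d0 with Dox minus d0 (vertical), comparisons that share no arrays. SLITRK5 lies at the upper left (-3.03, 2.93), and FLRT3 at the upper right (1.80, 2.01).

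Other LRR membrane genes of the nervous system went both ways. Of 32 measured, 8 rose and 3 fell between the day 6 groups in the Dox-labelled arrays (median -0.09), where 13.7% of all genes rose and 12.2% fell. FLRT3, an adhesion molecule that also modulates FGF receptors, averaged 4668 ± 340.1 in the Dox-labelled and 1371 ± 389.5 in the RA-labelled arrays (1.80 ± 0.19, adjusted p = 9.01e-05 in limma). LRRN4, the relative of the LRRN genes outside the families as taken here, rose as well (1.46 ± 0.13). FLRT2 (-1.49) and the adhesion gene AMIGO2 (-1.35) fell. At d0 with Dox against d0, 4 rose and 1 fell (median 0.11, against 0.03 over all genes), where 7.75% of all genes rose and 5.16% fell. FLRT3 averaged 2237 ± 22.2 with Dox and 546 ± 73.8 at d0 (2.01 ± 0.19, adjusted p = 0.00012 in limma), LINGO1, a coreceptor that limits axon growth, rose (0.84), and AMIGO2 fell (-0.84). As labelled, FLRT3 was higher with Dox on both days. With the day 6 labels turned it would be lower at d6 (-1.80 for RA-labelled minus Dox-labelled arrays).

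In RA-labelled d6 against d0, 7 of the 32 rose and 8 fell, near the shares over all genes, of which 25.3% rose and 25.2% fell. FLRT2 averaged 11635 ± 716 in RA-labelled d6 and 655 ± 83.9 at d0 (4.12 ± 0.11), and LRRTM4, a postsynaptic organiser, fell (-2.42 ± 0.12). In Dox-labelled d6 against d0 with Dox, 8 rose and 11 fell, where 22.2% of all genes rose and 23.9% fell. LRRN4 (2.65) and FLRT2 (1.84) led the rises, and LINGO1 (-2.59) and LRIG1 (-1.98), an inhibitor of EGF receptors, the falls. Of 9 neurexins, neuroligins and calsyntenins, synaptic adhesion genes, 3 rose and 3 fell between the day 6 groups, where 13.7% of all genes rose and 12.2% fell. NLGN1, a neuroligin, averaged 630.0 ± 18.7 in the Dox-labelled and 56.4 ± 7.65 in the RA-labelled arrays (3.16 ± 0.11, adjusted p = 7.84e-08 in limma). It averaged 625 ± 26.8 at d0 with Dox and 445 ± 65.7 at d0, so the RA-labelled arrays were the low group. For d0 with Dox against d0, 3 of these 9 rose, NLGN2 (0.60) and NLGN1 (0.49) among them, and 0 fell. Of all genes 7.75% rose and 5.16% fell there. In RA-labelled d6 against d0, 3 of the 9 rose and 2 fell, where 25.3% of all genes rose and 25.2% fell. In Dox-labelled d6 against d0 with Dox 2 rose and 4 fell, where 22.2% of all genes rose and 23.9% fell. The calsyntenin CLSTN2 led the rises (4.67 and 5.66), and NLGN1 (-2.67) and NLGN4X (-1.57) the falls.

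Neuron markers went both ways. Of 16 neuron markers measured, 2 rose and 3 fell with Dox at d0 (median -0.14), where 7.75% of all genes rose and 5.16% fell. DCX (0.74) and MAP2 (1.65), the second named after its value was seen, rose, and ELAVL2 (-1.08) and GAP43 (-0.77) fell. Between the day 6 groups 5 rose, NEFM (4.04) and NEFL (1.62) leading, and 2 fell, SYT1 (-0.84) and INA (-0.76). Of all genes 13.7% rose and 12.2% fell in that comparison. Their summed intensity per array lay between 30698 and 31447 in Dox-labelled d6, 25263 and 26720.2 in RA-labelled d6, 14662 and 15058 at d0 with Dox and 17405 and 18733 at d0. Much of the difference between d6 and d0 sums was STMN2. It averaged 10035 in Dox-labelled d6, 10691 in RA-labelled d6, 866 at d0 with Dox and 1051 at d0. In RA-labelled d6 against d0, 6 of the 16 rose and 5 fell, where 25.3% of all genes rose and 25.2% fell. In Dox-labelled d6 against d0 with Dox 6 rose and 5 fell, where 22.2% of all genes rose and 23.9% fell. TUBB3 alone averaged 8465 at d0 with Dox and 10460.2 at d0.

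Of 14 neural progenitor markers measured, 5 rose with Dox at d0 and 0 fell (median 0.47, against 0.03 over all genes), where 7.75% of all genes rose and 5.16% fell. The other 9 did not pass, PAX6, SOX1, SOX3 and HES5 among them. DLK1 (2.07) and FABP7 (0.93) rose, as did LHX2 (1.71), SIX3 (1.22) and NES (0.56), named after their values were seen. LHX2 and SIX3 were dim, with means of 147 and 70.0 with Dox and 36.7 and 21.6 at d0. DLK1 averaged 2667 with Dox and 623 at d0, and NES 3974 with Dox and 2701 at d0, which made up most of the difference in the sum: the summed intensity per array was 7184 to 8153 with Dox and 3836 to 4156 at d0. Of 13 pluripotent cell markers 1 rose, SOX2 (0.35), and 4 fell, NANOG (-1.09) and DPPA2 (-1.06) most, against 7.75% and 5.16% of all genes. Their summed intensity was 126043 to 129680.0 with Dox and 139738 to 149775 at d0. Of endoderm markers 0 of 8 rose, of mesoderm and mesenchyme markers 1 of 11, and of trophoblast and amnion markers 2 of 8. In these lists 0 fell, where 7.75% of all genes rose and 5.16% fell. The rises were ACTA2 (0.44) in the second list, and TFAP2A (1.39) and GATA3 (0.84) in the third. Between the day 6 groups, 2 of 8, 5 of 11 and 5 of 8 of these markers rose in the Dox-labelled arrays and 0 fell, where 13.7% of all genes rose and 12.2% fell. ISL1 counts in the second and the third of these lists. In the same comparison 3 of the 13 pluripotent cell markers rose and 6 fell. LIN28B (0.53) and L1TD1 (0.49) led those rises, and NANOG (-3.64) and PRDM14 (-3.25) the falls. Of the 14 neural progenitor markers 2 rose and 1 fell there. As a mark of RNA integrity, ACTB signal at the 3' end over that at the 5' end was 3.86 ± 0.0111 at d0 with Dox and 3.24 ± 0.139 at d0, and 2.33 ± 0.0580 in Dox-labelled and 2.59 ± 0.290 in RA-labelled day 6 arrays. The same ratio of GAPDH was 1.62 ± 0.0554 at d0 with Dox and 1.53 ± 0.0577 at d0, and 1.46 ± 0.0230 in Dox-labelled and 1.35 ± 0.0817 in RA-labelled day 6 arrays. The part of other cell types or of RNA integrity in the values of the 9 genes was not tested.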

How the data were processed

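The deposited values are linear intensities of probe sets. The sources used here do not state how the authors handled background, summarisation or scaling. A mean trimmed by 2% at each end was 500.1 on each array, so signal is relative to an array. Of 54675 probe sets, 41097 had 1 gene symbol in the platform annotation, 1801 had several, and 11777 were not listed here; gene IDs updated 41043 symbols. The brightest single-symbol probe set represented each of 19775 genes. Tests ran on log2(intensity + 16), a scale on which changes of dim genes are understated, in limma 3.58.1 and R 4.3.3 (lmFit and eBayes, all 12 arrays, 8 residual degrees of freedom). Probe set p-values were adjusted over all 54675. The procedure was tested on simulated data, with changes planted only at d0 with Dox and in genes at or above the median mean. No change was planted in dimmer genes or between the day 6 groups.

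The 9 genes and the gene lists were chosen with earlier results of these data known. Named genes of a list are up to 2 largest rises and 2 largest falls past the threshold whose higher group mean reached the median gene. The 3 genes of highest correlation are named for the 5 of the 9 genes at that level. Processing batches of arrays were not analysed here, and precision is limited by 3 arrays per group.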

Additional observations from a re-analysis of the deposited data

How the results depend on the processing

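Settings varied one at a time were the scaling (quantile, median centring), the probe set rule, the level filter, the variance model, array weights, the arrays fitted, a replicate block, the pseudocount (1 or 64) and leaving out each array. Over the single genes, 1138 alternative values kept direction and side of the threshold, 41 lost a call, 16 gained one and 17 reversed. Between the day 6 groups 4 of the 9 genes passed, against 2 with all probe sets tested, 2 with genes at or above the median mean and 2 with the 6 arrays of the comparison alone. Leaving out 1 array gave 2 to 5; it gave 2 without replicate 3 of d0, replicate 2 or 3 of d0 with Dox, replicate 1 or 2 of RA-labelled or replicate 1 or 3 of Dox-labelled arrays, where LRRN3 and SLITRK6 were lost. SLITRK4 (-1.01 to -0.91) passed there in all 23 alternative settings, and SLITRK5 (-3.40 to -2.09) in the 22 that tested it. The filter at the median mean leaves 4 of the 9 genes to test, LRRN1, LRRN2, LRRN3 and SLITRK4. Between the day 6 groups the 2 that passed under it were LRRN3 and SLITRK4, and SLITRK5 was not tested. The filter gave 3 for RA-labelled d6 against d0 (6 without it), 3 for Dox-labelled d6 against d0 with Dox (5) and 3 for Dox-labelled d6 against d0 (6). Same-numbered arrays of different groups deviated together with r of -0.0084 to 0.0483, against -0.0599 to 0.0192 for other numbers, and 9 of 12 arrays correlated best with their own number. That is a hint from the data and not part of the design, and with r this low the numbers were not taken as pairs. With the replicate block, 3 of the 9 genes passed between the day 6 groups and 7 in RA-labelled d6 against d0.

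Reversals were all in values that passed no test, and their cause was not tested. When probe sets were averaged per gene, LRRN2 gave -0.1832 in RA-labelled d6 against d0 and -0.1939 in Dox-labelled d6 against d0 with Dox, and SLITRK6 gave 0.2078 in the second of these. There SLITRK6 gave 0.1417 with quantile normalization and 0.14 with median centring, and SLITRK2 gave -0.0583 with a pseudocount of 1. Leaving out 1 array, in Dox-labelled d6 against d0 with Dox SLITRK6 ranged from -0.19 to 0.1274, LRRN2 from -0.1077 to 0.1886 and SLITRK2 from -0.2575 to 0.2462. LRRN2 in RA-labelled d6 against d0 ranged from -0.0816 to 0.4446. In Dox-labelled against RA-labelled d6, SLITRK1 ranged from -0.1597 to 0.409 and SLITRK2 from -0.1038 to 0.3999. Median centring moved the median of all genes to 0.1144 in Dox-labelled d6 against d0 with Dox. Over all genes, d0 with Dox against d0 had 2552 calls, and 1522 with its 6 arrays alone. Signal near the floor limits SLITRK1, SLITRK2 and SLITRK3 most.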
